A study of Mus musculus with 12 samples.

Results

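The antiviral interferon effectors examined here are 10 genes whose proteins act on viruses or on the interferon response inside the cell: Ifit1, Ifit2, Ifit3, Isg15, Rsad2, Cmpk2, Oasl1, Usp18, Zbp1 and Apobec3. They were chosen by symbol, and all 10 were found among the 24552 rows of a table of read counts per gene symbol. The cells were macrophages grown from mouse bone marrow. They came from wild-type mice (WT) or from mice lacking Gpr31b (KO), which encodes a G protein-coupled receptor. Cells were left unstimulated (M0) or stimulated with LPS, a bacterial cell-wall lipid, and IFN-γ (M1). Each of the 4 groups, WT M0, WT M1, KO M0 and KO M1, had 3 libraries, 12 in all. The labels give no dose, time, age or strain, no design of the knockout allele, and do not say whether libraries came from separate animals, so p-values cover no more than the spread among these 12 libraries.

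Interferons bind receptors on the cell surface and switch on genes through transcription factors in the nucleus. Type I interferon acts mainly through the factor complex ISGF3, which binds the interferon-stimulated response element (ISRE) in promoters. IFN-γ acts mainly through the gamma-activated site (GAS), another promoter element. Many of the induced genes encode proteins that bind viral RNA, alter nucleotide pools or tag other proteins, and macrophages are among the cells in which this program is best known.

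Library totals ran from 372878 to 585465 counts, and 4787 to 6216 rows held a count in each library. A total of 11497 rows held a count anywhere, and 2333 passed the filter on low counts and were tested. The Gpr31b row held 2, 2 and 2 counts in WT M1 and 0 in the other 9 libraries, too few to check the genotypes. The strand setting used for counting is not given in the sources used here, and 66.3% of tested rows that matched a gene model had an exon of another gene opposite one of their own exons. Among the 10 effectors 3 had one. Levels are therefore given for rows, not for genes, and a low row does not show that its gene was silent. For example, the row of Slfn5os, which lies opposite Slfn5, held 7456 counts over WT M1 against 117 in the Slfn5 row. The cause was not tested. All 10 macrophage marker rows held counts, but together only 122 to 324 in a library. The neutrophil, T cell and NK cell marker rows were at 0 in every library. Marker rows of B cells, of fibroblasts, and of mast cells and basophils summed to at most 3, 7 and 10 counts in a library.

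Of the 8 effector genes with a promoter window in the RefSeq table of build GRCm38.p6 (from 250 bases before to 50 bases after the start site), 5 held the ISRE letters, searched as a pair of GAAA blocks with 2 bases of any kind between them, on either strand. These letters were in 1131 of all 32851 mouse windows (3.44%). Among the other antiviral genes listed here, 22 of 41 with a window held them. The 3.44% counts windows, while an effector or other antiviral gene counts once for a match in any of its windows. The stretches with a match are shown because they are what 5 of the 8 promoters share. Each is read 5′ to 3′ on the strand of its gene, with the match in capitals. A match on the other strand shows as a pair of TTTC blocks. For Isg15, Ifit1, Ifit3 and Rsad2 the stretch runs from 160 to 21 bases before the start site. For Apobec3 only the 30 bases around the match are given, since an exon is annotated there. In build GRCm38.p6 they lie at chr4:156200839-156200978 on the minus strand (Isg15), chr19:34640729-34640868 on the plus strand (Ifit1), chr19:34583369-34583508 on the plus strand (Ifit3), chr12:26456473-26456612 on the minus strand (Rsad2) and chr15:79892258-79892287 on the plus strand (Apobec3).
Isg15: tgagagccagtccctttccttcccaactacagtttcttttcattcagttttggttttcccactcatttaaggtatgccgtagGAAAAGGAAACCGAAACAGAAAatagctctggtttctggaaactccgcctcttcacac
Ifit1: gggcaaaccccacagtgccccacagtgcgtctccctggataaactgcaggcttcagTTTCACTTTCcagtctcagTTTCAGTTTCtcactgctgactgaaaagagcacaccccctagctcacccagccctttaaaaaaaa
Ifit3: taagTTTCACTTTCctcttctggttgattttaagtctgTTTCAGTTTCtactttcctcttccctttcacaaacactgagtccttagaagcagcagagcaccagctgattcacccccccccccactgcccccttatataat
Rsad2: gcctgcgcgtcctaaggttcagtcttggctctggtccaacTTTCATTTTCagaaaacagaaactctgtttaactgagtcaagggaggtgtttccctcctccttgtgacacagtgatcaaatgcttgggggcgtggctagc
Apobec3: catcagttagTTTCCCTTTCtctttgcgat

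The Isg15 window held 3 matches that overlap, each starting 6 bases after the one before. The Ifit1 and Ifit3 windows each held 2 matches with the same letters in the same order, TTTCACTTTC and then TTTCAGTTTC. Their starts lie 19 bases apart in Ifit1 and 34 bases apart in Ifit3. Both Ifit1 matches lie in the 127 bases between the annotated starts of Ifit1 and of Ifit1bl2, which is read in the other direction. The GAS letters TTCNNNGAA were in 2726 of all windows (8.30%), and of the effectors only Ifit2 had them, from 241 to 233 bases before its first start site. Neither motif was found in the windows of Cmpk2 and Oasl1, nor in the second windows of Apobec3 and Ifit2. No window was at hand for Usp18 and Zbp1. A match is a string of letters, and binding was not measured.

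**Figure D1:**
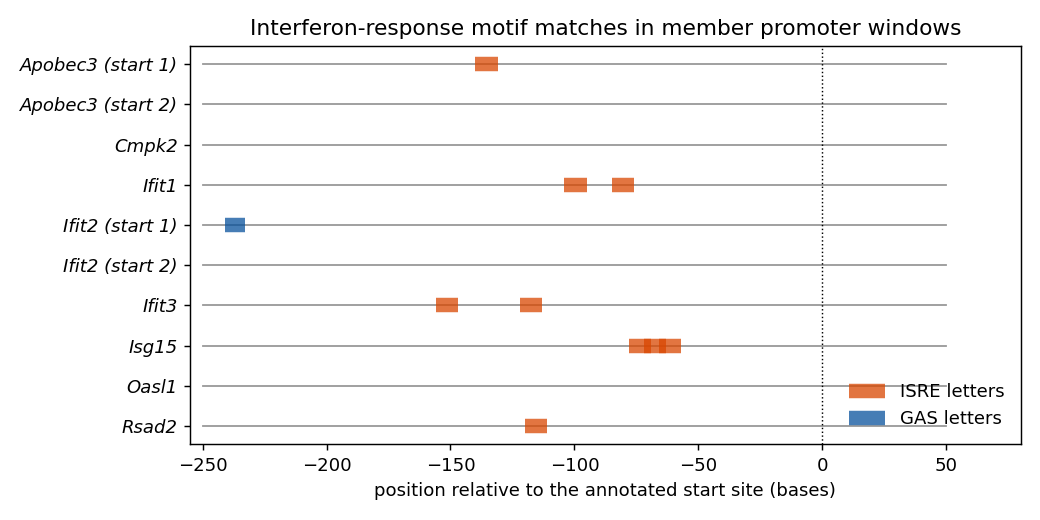
Positions of ISRE letters (orange) and GAS letters (blue) in the promoter windows of the 8 effector genes that have one, in bases from the annotated start site (dotted line); genes with 2 annotated starts have 2 lines. Every ISRE match lies upstream, between 156 and 57 bases before the start site, and the 3 Isg15 matches overlap.

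In unstimulated macrophages the effector rows were empty or nearly so, and in stimulated macrophages of both genotypes most of them held counts. Together the 10 rows held 0.00116% to 0.00341% of a library's counts in M0 and 0.0516% to 0.0866% in M1. The rows of Ifit2, Ifit3, Isg15, Cmpk2, Oasl1 and Zbp1 (6 of 10) were at 0 in all M0 libraries of both genotypes. Of the 10 rows, 7 held a count in all 6 M1 libraries. The exceptions were Ifit3, Usp18 and Zbp1. Rows of Ifit1, Ifit2, Rsad2, Cmpk2, Oasl1 and Apobec3 passed the filter on low counts and were tested. Those of Ifit3, Isg15, Usp18 and Zbp1 had too few counts for a test, so 4 of the 10 effectors have values without a p. In these bulk samples, fewer expressing cells and less RNA per cell cannot be told apart.

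**Figure D2:**
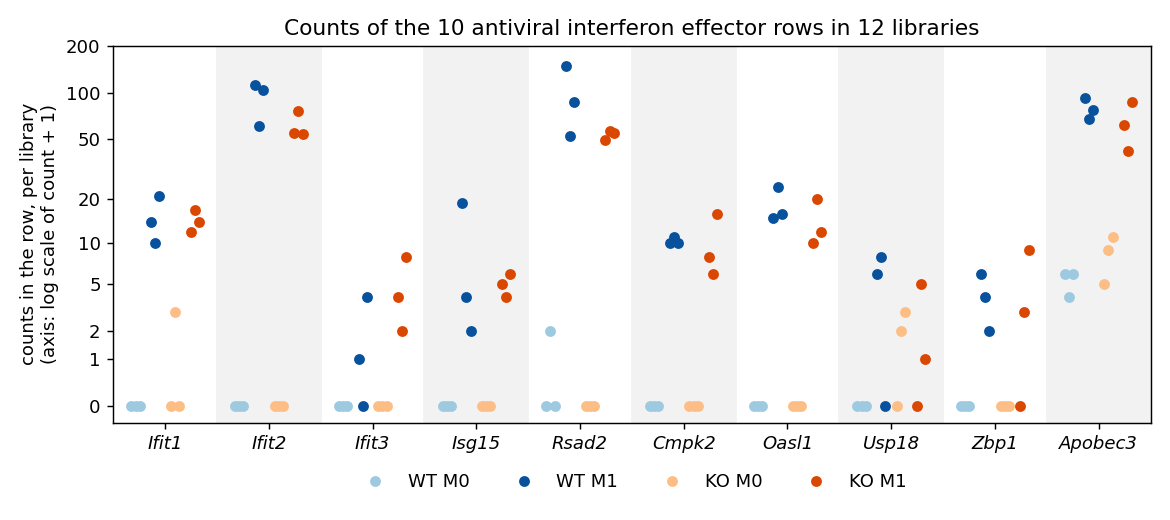
Counts in each of the 10 rows, one point per library, for WT M0, WT M1, KO M0 and KO M1 (3 libraries each); the vertical axis is a log scale of the count plus 1. M0 points lie at 0 to 3 counts in every row but Apobec3, where they lie at 4 to 11, and M1 points reach 148 in Rsad2.

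The 3 Ifit genes encode RNA-binding proteins made of tetratricopeptide repeats. They lie on the plus strand of chromosome 19 within 99316 bases. Ifit2 (ENSMUSG00000045932.12, 34550694 to 34576419 in GENCODE M21, build GRCm38) had the highest mean level per kilobase of exon of all 10 rows in both M1 groups. Its row held 0 counts in all 6 M0 libraries, 112, 61 and 104 counts in WT M1, and 55, 76 and 54 in KO M1. The M0 and M1 libraries did not overlap in either genotype. The WT M1 level was 259 ± 86.3 CPM (SD, n = 3), at least 129-fold above the limit of 3 counts over the WT M0 group (edgeR adjusted p = 8.20e-13). In KO M1 it was 171 ± 32.9 CPM (n = 3), at least 83.4-fold above the same limit in KO M0 (edgeR adjusted p = 1.25e-11). Here and below, such folds take the M1 counts as they stand, without their counting error. No exon of another gene lies opposite the Ifit2 exons.

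Ifit1 (ENSMUSG00000034459.8, chromosome 19, 34640871 to 34650009) encodes a protein that binds viral RNA lacking the host cap methylation. Its row held 0 counts in each WT M0 library and 14, 10 and 21 in WT M1. In the knockout it held 0, 3 and 0 in M0 and 12, 17 and 14 in M1. Stimulated libraries were above unstimulated ones in both genotypes, with 1 KO M0 library holding all of the M0 counts. The row was at least 20.9-fold higher in WT M1, at 43.9 ± 24.1 CPM (n = 3; edgeR adjusted p = 2.54e-05). In the knockout it rose from 2.04 ± 3.53 to 39.6 ± 5.50 CPM (n = 3 each; log2 fold change 4.10 with a standard error, SE, of 0.95, edgeR adjusted p = 0.000658). Without KO M0 replicate 2, which held the 3 counts, the row was at 0 in KO M0 and at least 12.9-fold higher in KO M1, against 3 counts over the remaining 2 libraries. From 43 and 3 counts the ratio was 19.4, with a 95% exact interval from 6.21 to 97.7 that covers counting error only. Of all counts from 1 to 12 in the table, 60.9% were even, so counts may not be independent and such intervals and limits may be too narrow.

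Ifit3 (ENSMUSG00000074896.3, chromosome 19, 34583531 to 34588731), whose product forms complexes with the other Ifit proteins in human cells, stood at few counts. Its row held 0 in all M0 libraries, 1, 0 and 4 counts in WT M1 and 4, 2 and 8 in KO M1. The KO M1 libraries all lay above 0, and 1 WT M1 library was at 0. Of the 50-base windows in the Ifit3 transcripts, 51.2% also occur in Ifit3b, a near copy in the same locus, so reads from these genes may not have been told apart and both rows are uncertain. The Ifit3b row held 2 counts in 1 WT M1 library and 0 elsewhere. Ifit1 shared 7.06% of its windows with Ifit1bl2 and 0.61% with Ifit1bl1, and both of those rows were at 0 in all 12 libraries. Across the locus the level per kilobase in WT M1 was thus 65.9 ± 22.0 CPM for Ifit2, 16.5 ± 9.09 for Ifit1 and 3.01 ± 4.22 for Ifit3 (n = 3 each).

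**Figure D3:**
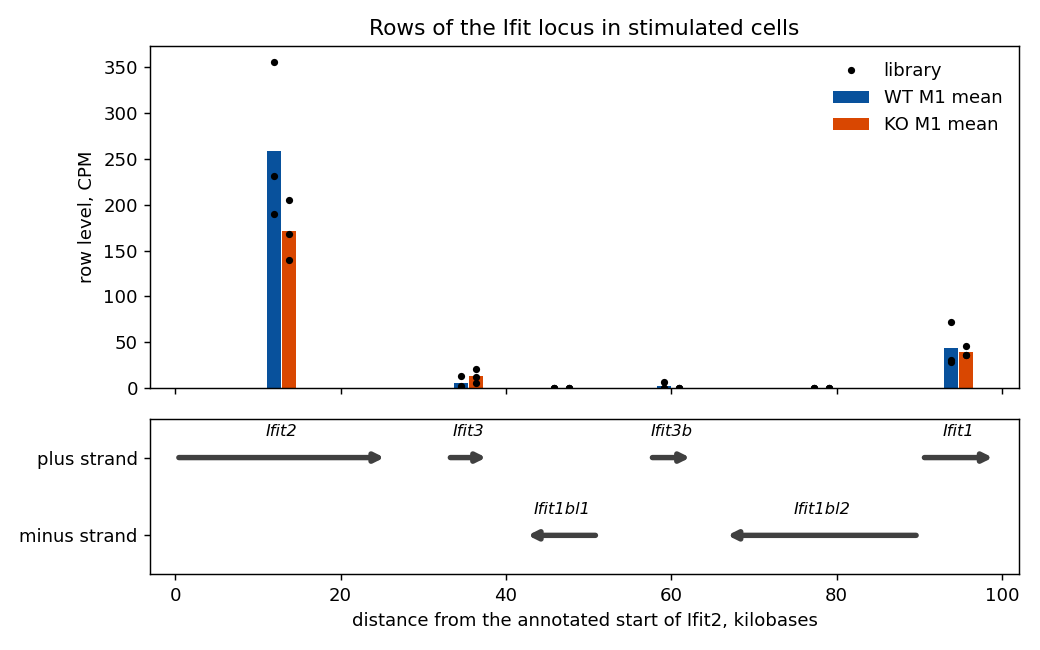
Rows of the Ifit locus in stimulated macrophages: mean level in CPM (bars) and single libraries (points) for WT M1 and KO M1 above, annotated genes on the plus and minus strand below, by distance from the annotated start of Ifit2 in kilobases. Ifit2 and Ifit1, at the ends of the locus, hold most of the counts, and Ifit1bl1 and Ifit1bl2 are at 0.

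Rsad2 encodes viperin, a radical SAM enzyme that makes a chain-terminating nucleotide from CTP. Cmpk2 encodes a mitochondrial nucleotide kinase. The genes are neighbours on chromosome 12, read away from each other with 12751 bases between them (Rsad2, ENSMUSG00000020641.16, 26442746 to 26456452, minus strand; Cmpk2, ENSMUSG00000020638.8, 26469204 to 26479837, plus strand). The Rsad2 row held 0, 2 and 0 counts in the WT M0 libraries and 148, 52 and 87 after stimulation. In the knockout it held 0 in M0 and 49, 56 and 55 in M1. M0 and M1 libraries were far apart in both genotypes.

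In WT the Rsad2 row rose from 1.46 ± 2.53 to 255 ± 80.9 CPM (n = 3 each; log2 fold change 7.32, SE 0.56, edgeR adjusted p = 2.01e-12). The ratio from 287 and 2 counts was 200.1, with a counting interval from 54.9 to 1661. Without WT M0 replicate 2, which held the 2 counts, the row was at 0 in WT M0 and at least 93.7-fold higher in WT M1, against 3 counts over the remaining 2 libraries. In KO M1 the level was 148 ± 4.69 CPM, at least 72.1-fold above the limit in KO M0 (n = 3; edgeR adjusted p = 2.91e-11). The Cmpk2 row also went from 0 in all M0 libraries to counts in all M1 libraries, at lower numbers: 10, 11 and 10 in WT M1 and 8, 6 and 16 in KO M1. It was at least 14.4-fold higher in WT (29.7 ± 7.81 CPM, n = 3, edgeR adjusted p = 0.000243) and at least 13.5-fold higher in KO (27.4 ± 12.9 CPM, n = 3, edgeR adjusted p = 0.00035). Per kilobase of exon, the Rsad2 row stood at 58.8 ± 18.7 CPM in WT M1 against 7.12 ± 1.87 for Cmpk2, and the libraries of these 2 rows did not overlap.

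Oasl1 (ENSMUSG00000041827.15, chromosome 5, 114923240 to 114937915, plus strand) belongs to the 2′-5′ oligoadenylate synthetase family and is known in mice to restrain translation of Irf7. Its row held 0 counts in all M0 libraries, 15, 24 and 16 in WT M1, and 10, 20 and 12 in KO M1. The M1 libraries of both genotypes lay above all M0 libraries and overlapped each other. The WT M1 level of 53.4 ± 21.8 CPM was at least 25.6-fold above the WT M0 limit (n = 3; edgeR adjusted p = 5.75e-06). The KO M1 level of 38.6 ± 13.4 CPM was at least 18.9-fold above the KO M0 limit (n = 3; edgeR adjusted p = 2.31e-05). An exon of Gm13822, which has no row in the table, lies opposite 38 bases of the Oasl1 exons.

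Isg15 encodes a ubiquitin-like protein that is attached to other proteins, and Usp18 encodes the protease that takes it off and also damps signalling from the type I interferon receptor. The Isg15 row (ENSMUSG00000035692.6, chromosome 4, 156199424 to 156200818, minus strand) was at 0 in all M0 libraries. It held 19, 4 and 2 counts in WT M1 and 5, 4 and 6 in KO M1. All 6 stimulated libraries were above 0, and WT M1 replicate 1 held most of the WT counts. The summed counts were at least 11.6-fold above the M0 limit in WT and at least 6.76-fold in KO. This is the shortest of the 10 genes, with 756 exon bases, and per kilobase its row came after Ifit2 and Rsad2 in WT M1, at 25.8 ± 22.9 CPM (n = 3).

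The Usp18 row (ENSMUSG00000030107.10, chromosome 6, 121245906 to 121270917, plus strand) varied between libraries of 1 group. In WT it held 0 counts without stimulation and 6, 8 and 0 with it. In KO it held 0, 2 and 3 without and 0, 5 and 1 with it. M0 and M1 libraries overlapped in both genotypes, and the row was not tested. An exon of Gm44148, which has no row in the table, lies opposite 124 bases of Usp18. The rows of 3 other genes of ISG15 conjugation, Uba7, Ube2l6 and Herc6, were also too low for a test. Uba7, the activating enzyme, held 0 to 2 counts in every library. Ube2l6, the conjugating enzyme, held 6, 2 and 4 counts in WT M1, 0, 2 and 0 in KO M1 and none in M0. Herc6, the mouse ligase, held 8, 1 and 2 counts in WT M1 and 6, 14 and 15 in KO M1. Scaled to depth these were 16.5, 3.10 and 6.83 CPM in WT M1 and 18.3, 37.9 and 38.9 CPM in KO M1. The raw counts of the Herc6 row overlapped between the genotypes, but the scaled levels did not (highest 16.5 CPM in WT M1, lowest 18.3 in KO M1). The row was not tested.

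Zbp1 encodes a sensor of Z-form nucleic acid that can start necroptosis through Ripk3. Its row (ENSMUSG00000027514.14, chromosome 2, 173206612 to 173218923, minus strand) was at 0 in all M0 libraries and held 6, 4 and 2 counts in WT M1 and 0, 3 and 9 in KO M1. The WT M1 libraries all lay above WT M0, and 1 KO M1 library was at 0. The sums of 12 and 12 counts were at least 5.58-fold and at least 5.41-fold above the M0 limits. Of 15 nucleic acid sensors and adaptors, including Ripk3, 12 were too low and 3 were tested. Of these 3, the Mb21d1 row was not called in either genotype (edgeR adjusted p = 0.127 in WT and 0.0579 in KO). The DNA sensor Aim2 rose in both genotypes, from 2, 0 and 0 to 34, 17 and 36 counts in WT and from 2, 0 and 0 to 18, 21 and 34 in KO (log2 fold changes 5.69 and 5.34, SEs 0.81 and 0.82, edgeR adjusted p = 5.04e-07 and 1.91e-06). The row of Mlkl, the executioner of necroptosis, rose in WT (6, 2 and 2 to 20, 16 and 16 counts; log2 fold change 2.85, SE 0.67, edgeR adjusted p = 0.00072). In KO its change missed the threshold (4, 7 and 24 to 23, 18 and 16 counts; edgeR adjusted p = 0.105), and the difference between the genotypes' changes was not called either (edgeR adjusted p = 0.831).

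Apobec3 encodes a cytidine deaminase that edits retroviral DNA, and it was the only effector with counts in every library. The gene (ENSMUSG00000009585.18) lies on the plus strand of chromosome 15, from 79891659 to 79915906. Its row held 6, 4 and 6 counts in the WT M0 libraries and 92, 67 and 77 after stimulation. In the knockout it held 5, 9 and 11 in M0 and 62, 42 and 87 in M1. All M1 libraries lay above all M0 libraries. The row rose from 10.4 ± 1.44 to 220.4 ± 38.1 CPM in WT (n = 3 each; log2 fold change 4.36, SE 0.38, edgeR adjusted p = 2.57e-11). In KO it rose from 17.1 ± 6.55 to 176 ± 57.1 CPM (n = 3 each; log2 fold change 3.34, SE 0.36, edgeR adjusted p = 2.66e-09).

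Reads in the Apobec3 row cannot be assigned to that gene alone. Cbx7, which encodes a Polycomb chromobox protein, lies on the minus strand, and its exons overlap those of Apobec3 by 100 bases where the 3′ ends of the genes meet. D730005E14Rik, annotated as an antisense RNA, lies on the strand of Apobec3 and shares 676 exon bases with it at the other end. The ISRE match listed for Apobec3 lies inside the span of D730005E14Rik (79889532 to 79893120). Both neighbouring rows rose in the same libraries. Cbx7 went from 5, 0 and 4 to 14, 9 and 9 counts in WT, and from 2, 4 and 7 to 33, 14 and 19 in KO (log2 fold changes 2.28 and 2.77, SEs 0.76 and 0.70, edgeR adjusted p = 0.013 and 0.00145). D730005E14Rik went from 191, 133 and 122 to 1200, 867 and 834 counts in WT, and from 133, 207 and 219 to 837, 830 and 930 in KO (log2 fold changes 3.20 and 2.65, SEs 0.15 and 0.15, edgeR adjusted p = 9.30e-18 and 7.06e-16). Per kilobase in WT M1 the D730005E14Rik row stood at 745 ± 52.1 CPM, the Apobec3 row at 23.3 ± 4.03 and the Cbx7 row at 4.50 ± 0.22 (n = 3 each). Without the strand setting, the table does not show which of these genes gave the reads.

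**Figure D4:**
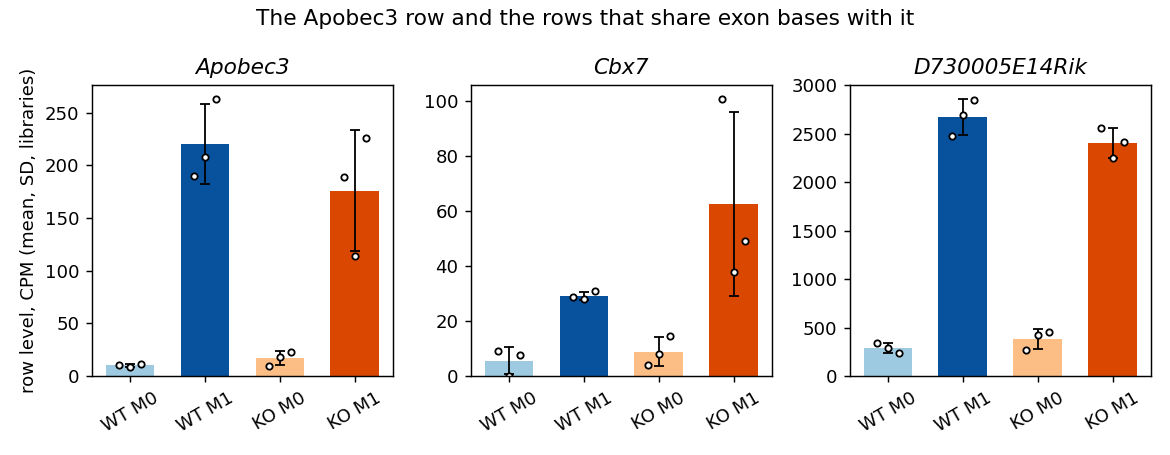
Levels in CPM of the Apobec3 row and of the rows of Cbx7 (opposite strand) and D730005E14Rik (same strand), which share exon bases with it; bars are means, error bars SD over 3 libraries, circles single libraries, and each panel has its own axis. All 3 rows are higher in M1 than in M0 in both genotypes, and D730005E14Rik reaches 2850 CPM.

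All 6 tested effector rows were called higher after stimulation in WT and all 6 in KO. Of all tested rows, 25.7% were called higher and 23.1% lower in WT, and 25.2% and 22.4% in KO. Libraries of M1 lay wholly above those of M0 for all 6 rows in each genotype, against 28.2% of all tested rows in WT and 28.3% in KO. These rows passed the filter through their M1 counts and so had to differ from M0, which leaves the counts of calls as a description. The median log2 fold change of the 6 rows was 4.53 in WT and 4.17 in KO, with 4 rows in each at their lower bound, against −0.03 and 0.01 over all tested rows.

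Per kilobase the order of the 10 rows was close to a ladder with few clear steps. In WT M1 it ran from Ifit2 and Rsad2 through Isg15, Apobec3, Oasl1 and Ifit1 to Cmpk2, Usp18, Ifit3 and Zbp1. The only neighbours in that order whose libraries did not overlap were Ifit1 (10.9 to 27.0 CPM per kilobase) and Cmpk2 (4.96 to 8.21). In KO M1 the Ifit2 row (35.6 to 52.3) lay above the Rsad2 row (32.9 to 34.9), which lay above the Apobec3 row (12.01 to 23.8). From Apobec3 downward every row overlapped the next. After Apobec3 came Isg15, Ifit1, Oasl1, Ifit3, Cmpk2, Zbp1 and Usp18.

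The 6 tested rows followed one another closely over the 12 libraries. Each correlated with the mean profile of the other 5 at 0.968 (Ifit1) to 0.994 (Ifit2), on the log2 CPM scale. The rows outside the list with the most similar profile were those of the chemokine gene Ccl5 (0.997), 3110062M04Rik (0.997), Zfp276 (0.997), Trnt1 (0.996) and Brip1os (0.996). These values describe 12 libraries that differ mainly by stimulation. The Ccl5 row was at 0 in M0, with 125 CPM in WT M1 and 107 in KO M1.

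Most tested rows of other antiviral genes were also higher after stimulation. Of 53 such genes, 6 held no count, 30 were too low, and 17 were tested. In WT 15 were called higher and 1 lower, and in KO again 15 and 1, where 25.7% and 25.2% of all tested rows were called higher. Of the 17, 3 in WT and 4 in KO were at 0 in M0 and passed the filter on low counts through other groups, so these counts do not stand for all 53. The median log2 fold change was 3.03 in WT and 3.71 in KO. The rows with the largest fitted rises in WT were Oasl2, a paralog of Oasl1 that shares none of its 50-base windows, and Ifi205, of the Aim2-like family. The Oasl2 row was at 0 in M0 and at least 23.2-fold higher in WT M1 (30, 7 and 13 counts; edgeR adjusted p = 2.14e-05). The Ifi205 row was at 0 in M0 and at least 19.1-fold higher in WT M1 (24, 10 and 7 counts; edgeR adjusted p = 0.000101). Both fitted sizes rest on an M0 group at 0. Among rows with counts in M0, the Sp110 row, of a nuclear body protein, went from 40, 34 and 17 to 1111, 581 and 564 counts in WT (log2 fold change 5.07, SE 0.24, edgeR adjusted p = 1.68e-13). Since a bound is only a lower limit, the rises of Sp110, Oasl2 and Ifi205 cannot be ranked. An exon of G530012D18Rik, which has no row in the table, lies opposite 392 bases of Sp110.

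The 1 row called lower in both genotypes was Ifi27l2a. It held 201, 159 and 202 counts in the WT M0 libraries and 16, 21 and 9 after stimulation (log2 fold change −3.11, SE 0.28, edgeR adjusted p = 4.83e-11). In KO it went from 193, 155 and 181 to 5, 23 and 18 counts (log2 fold change −3.09, SE 0.28, edgeR adjusted p = 5.73e-11). The Ifi27 gene lies opposite it with its 3′ end 1928 bases away, and the Ifi27 row rose from 4, 1 and 2 to 72, 68 and 69 counts in WT (log2 fold change 5.35, SE 0.51, edgeR adjusted p = 1.81e-10). The smallest called rise in WT was that of Shisa5 (log2 fold change 1.25, SE 0.48, edgeR adjusted p = 0.033), which was not called in KO (edgeR adjusted p = 0.49; genotype difference in the change, adjusted p = 0.896). Zc3hav1, which encodes the RNA-binding antiviral protein ZAP, was called in KO alone (3, 6 and 1 to 10, 24 and 17 counts; edgeR adjusted p = 0.00243) and held 6, 6 and 10 to 7, 4 and 4 counts in WT. The difference between those changes was not called (edgeR adjusted p = 0.628).

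Rows of the interferons themselves held almost nothing. Ifnb1, Ifna4, Ifna2 and Ifng were at 0 in all 12 libraries, and the receptor rows Ifnar1, Ifnar2, Ifngr1 and Ifngr2 were too low for a test. Summed over the 8 genes, the level was 19.8 to 36.6 CPM in WT M0 and 18.6 to 57.8 in WT M1.

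Some marker rows of other cells moved with stimulation. The 4 dendritic cell markers summed to 23.1 to 48.5 CPM in WT M0 and 566 to 674 in WT M1, and to 24.2 to 52.3 in KO M0 and 505 to 735 in KO M1. This was nearly all the Xcr1 row (13, 19 and 10 to 271, 217 and 174 counts in WT). Flt3 was at 0 in all 12 libraries, and Ccr7 held at most 2 counts in any library. Clec9a, the other tested row of this list, went the other way. It held 14, 1 and 2 counts in WT M0 and 1, 0 and 0 in WT M1 (edgeR adjusted p = 0.069, not called). In KO it fell from 6, 11 and 12 counts to 0 in all 3 libraries (edgeR adjusted p = 0.00509). The 4 plasmacytoid dendritic cell markers, 1 of which is the antiviral gene Bst2, summed to 3.59 to 17.3 CPM in WT M0 and 15.5 to 34.2 in WT M1. In the knockout these markers summed to 0 to 18.1 CPM in M0 and 29.7 to 36.3 in M1. Their part in the effector rows was not tested.

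No effector row was called different between genotypes, in either state. In M0, with 0.0429% of all tested rows called, 0 of 6 were. An unadjusted p under 0.05 was found for 150 of the 2333 tested rows and for 0 of the 6. DESeq2 and limma-voom called 0 effectors as well. The rows of Ifit2, Cmpk2 and Oasl1 were at 0 in both genotypes, have no fold and could not have been called. Those of Ifit1 and Rsad2 rest on 3 and 2 counts. Apobec3, the one row with counts in all M0 libraries, held 17.1 CPM in KO against 10.4 in WT (log2 fold change 0.70, 95% interval −0.31 to 1.71, edgeR adjusted p = 0.943). The groups overlapped.

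In M1, 0% of tested rows were called, and 164 had an unadjusted p under 0.05, of which 1 was an effector. DESeq2 called 0 rows too. All 6 tested effectors had the lower mean in the knockout, though the log2 fold change was only −0.13 for Ifit1 and −0.09 for Cmpk2. Of all tested rows, 49.1% had a log2 fold change below 0. The 6 rows may not vary independently, and their shared direction was not tested. The row with p under 0.05 was Rsad2, at 306, 161 and 297 CPM in WT M1 and 150, 151 and 143 CPM in KO M1. The knockout libraries lay close together and below all 3 WT libraries, as was so for 4.84% of all tested rows. The log2 fold change was −0.79 (SE 0.31, 95% interval −1.42 to −0.15, unadjusted p = 0.0166, edgeR adjusted p = 0.526), so the difference failed the correction over 2333 rows. Leaving out single libraries, it ran from −1.05 to −0.62, with adjusted p from 0.314 to 0.947.

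The Ifit2 row held 231, 189 and 355 CPM in WT M1 and 168, 206 and 140 CPM in KO M1. The groups overlapped in 1 library each, and the log2 fold change was −0.59 (95% interval −1.19 to 0.01, edgeR adjusted p = 0.728). For Apobec3 it was −0.32 (95% interval −0.90 to 0.27, adjusted p = 0.894). The lower counts gave wide intervals elsewhere: −1.78 to 0.88 for Oasl1, −1.57 to 1.32 for Ifit1 and −1.73 to 1.54 for Cmpk2. For these 3 rows a difference of the size seen in Rsad2 lay within the interval in either direction and was not detectable at this depth. Ifit1 and Cmpk2 changed sign when single libraries were left out.

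**Figure D5:**
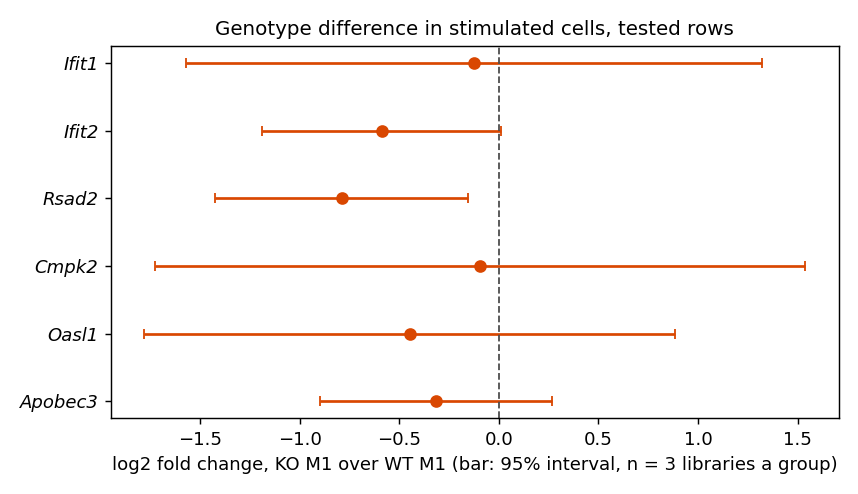
Log2 fold change of KO M1 over WT M1 for the 6 tested rows, with 95% intervals from the edgeR fit (3 libraries a group); the dashed line marks no difference. All 6 points lie below 0, the Rsad2 interval ends at −0.15, and the Cmpk2 interval runs from −1.73 to 1.54.

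The 4 rows without a test are given by their summed counts in M1. Ifit3 held 14 counts in KO M1 and 5 in WT M1, a ratio of 2.84 with an exact 95% counting interval from 0.967 to 10.1. Isg15 held 15 and 25 (ratio 0.609, 0.298 to 1.20). Usp18 held 6 and 14 (ratio 0.435, 0.137 to 1.20). Zbp1 held 12 and 12 (ratio 1.01, 0.417 to 2.47). Every interval includes 1, and none covers the spread between libraries. Single libraries decided these ratios, and leaving each M1 library out in turn was chosen after seeing the data. Without WT M1 replicate 1, which held 19 of the 25 counts, the Isg15 ratio turned to 1.42 (0.520 to 4.46). Without WT M1 replicate 3 the Ifit3 ratio was 10.4, from 14 and 1 counts, and without KO M1 replicate 3 it was 1.89. The Usp18 ratio was 0.110 without KO M1 replicate 2 and 0.717 without WT M1 replicate 2. The Zbp1 ratio was 0.394 without KO M1 replicate 3 and 0.893 without WT M1 replicate 3.

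The interaction of genotype with stimulation was called in 0% of tested rows, with 143 at an unadjusted p under 0.05 and none of them an effector. DESeq2 also called 0. Only Apobec3 had M0 counts enough for a usable estimate. Its rise was smaller in the knockout by 1.01 on the log2 scale (95% interval of the change −2.18 to 0.15, edgeR adjusted p = 0.843). The estimates for Ifit1 and Rsad2 rest on 3 and 2 counts in M0, and those for Ifit2, Cmpk2 and Oasl1, at 0 in both M0 groups, cannot be had.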

How the data were processed

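The authors deposited 1 table of raw counts, with gene symbols in rows and libraries in columns, per the file headers. Per the labels' protocols, libraries were strand-specific (TruSeq, from polyA RNA) and run on an Illumina NovaSeq. The submitters' processing notes name Trimmomatic, FastQC, HTSeq, DESeq2 and build mm10. The aligner, annotation and strand setting are not given in the sources used here.

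Counts were tested with edgeR 4.0.16 in R 4.3.3: filterByExpr on the 4 groups (2333 rows left), TMM factors, 1 quasi-likelihood fit with robust spread to all 12 libraries, 5 comparisons, and Benjamini-Hochberg adjustment over all tested rows, with calls at an adjusted p under 0.05. CPM are counts scaled to the summed tested rows of a library times its TMM factor. Intervals are 95%. Folds against a group at 0 are taken against 3 counts over that group, with the M1 counts as they stand. They allow for counting error in the group at 0 alone. Counting error in M1 and the spread between libraries are not covered, so the true fold may lie below the one given. PCR reads are also not independent molecules. The model was also run on simulated counts, with an outcome that is not given here. Gene models are GENCODE M21 and promoters RefSeq GRCm38.p6.

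The effectors, lists and rules for naming rows were chosen with earlier results of these data known. Named beside the effectors were genes overlapping or facing them, near copies, the 2 largest and 2 smallest called changes of each list in WT, and the 5 most similar profiles. Ifit3b, Herc6, Ube2l6, Uba7, Mb21d1, Zc3hav1, Ifi27, Sp110, Slfn5 and Slfn5os were described beyond that, after their values were seen. Alternatives were library size alone, RLE factors, other filters, DESeq2 1.42.0, limma-voom 3.58.1, only the groups compared, a replicate block and leaving out each library.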

Additional observations from a re-analysis of the deposited data

How the results depend on the processing

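The calls of the tested effector rows after stimulation held under every alternative in which the rows were tested. Cmpk2 did not pass the filter with only the groups compared, which left 5 effectors called in each genotype. Rows too low for the test were called under looser filters. Isg15 was called in both genotypes with no filter, with at least 10 counts and by DESeq2. Usp18 was called in WT with no filter and with at least 10 counts, and Zbp1 in both genotypes and Ifit3 in KO with at least 10 counts alone. Effectors called higher thus numbered 8 in WT and 7 in KO with no filter, 9 and 9 with at least 10 counts, and 7 and 7 by DESeq2. With library size alone, without TMM, log2 fold changes shifted down, with medians over all rows of −0.54 in WT and −0.47 in KO. Calls then split into 389 higher and 893 lower in WT, against 600 and 538, and into 391 and 858 in KO, against 588 and 522. No effector call changed.

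Between genotypes in M0, 1 row of the whole table was called. That count was 0 with library size alone, DESeq2, limma-voom, the replicate block and only the groups compared, 4 with no filter, 3 with at least 10 counts, and 0 to 2 leaving out single libraries. In M1 it was 0, and 0 to 3 leaving out single libraries, with the 3 without KO M1 replicate 1. The interaction had 0 calls, 3 with no filter, 3 with at least 10 counts, 3 with the replicate block, and 0 to 3 leaving out single libraries. None of these calls was an effector. In M1 the Ifit1 log2 fold change was 0.071 by limma-voom and −0.36 to 0.37 leaving out single libraries, and that of Cmpk2 was −0.53 to 0.17. The interaction for Rsad2 was −0.042 by limma-voom. The cause was not tested.

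Whether replicate numbers pair the libraries was not settled, and the main fit did not pair them. For this check each row's group mean was subtracted from its log2 CPM, so only differences within a group were compared. On that scale, same-numbered libraries of a genotype correlated at 0.0413 to 0.12, above 0.1 in 2 of 6 pairs. Within its genotype, each of the 12 correlated best with its own number. Between genotypes, same-numbered libraries of the same state correlated at −0.0248 to 0.173 (6 pairs), so a shared number need not mean pairing within a genotype. With the replicate block, 1113 rows were called in WT and 1102 in KO, against 1138 and 1110. Of the effectors' counts in single libraries, 38 lay between 1 and 12.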
